A study of Mus musculus with 2 samples.

Results

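The genes of glycolysis and of the hypoxia response were described in 2 single-cell RNA libraries of mouse pancreatic ductal adenocarcinoma. The set had 36 members, chosen by symbol from the 55361 features of the matrices: 23 genes of glucose uptake, glycolysis and lactate export, and 13 genes that respond to low oxygen. Both libraries came from the KPFRR mouse. In this model Pdx1-Flp, a Flp recombinase under the pancreatic Pdx1 promoter, acts on the alleles KrasFSF-G12D/+ and Trp53frt/frt, and the mice also carry Rosa26FSF-creER and the reporter Rosa26mTmG. Group 1 was the whole tumour and group 2 was the fraction sorted for high levels of the surface tetraspanin CD9 (CD9hi), with live cells sorted on GFP or CD9. The labels do not say whether the whole-tumour cells were sorted on GFP, although the design names GFP-positive cells, and the GFP feature had 0 UMIs in the barcodes analysed in either library. The labels give neither the age of the mice nor the number of tumours in a library. With 1 library per group there is no replicate check, so no test was made, and every interval covers counting error only.

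Glycolysis splits glucose into pyruvate, and lactate dehydrogenase turns pyruvate into lactate, which monocarboxylate transporters carry out of the cell. Under low oxygen, HIF transcription factors are stabilised and bind short DNA motifs near many glycolysis genes and near genes of blood vessel growth, pH control, mitophagy and collagen maturation. Pancreatic ductal adenocarcinoma is known for dense stroma, poor perfusion and high glucose use.

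The whole-tumour library held 3082 barcodes with 48287984 unique molecular identifiers (UMIs), and the CD9hi library held 5500 with 120451299. Of these, 2550 and 5092 passed the cell filter, and 2 barcode sequences occurred in both libraries. Barcodes with Malat1, a nuclear RNA, under 1000 CPM (UMIs of a gene scaled to a common library total) were set apart (216 in the whole tumour and 613 in CD9hi), as were those with digestive enzymes of acinar cells at 10000 CPM or more. That left 1966 whole-tumour barcodes (median 17653 UMIs) and 4473 CD9hi barcodes (median 22127 UMIs), called acinar-low below. In these, Cd9 was at 2312 CPM in CD9hi against 1578 CPM in the whole tumour. The epithelial gene Epcam was at 1166 and 2257 CPM in the same order, and the mesenchymal genes Vim and Prrx1 were at 4815 and 1441 CPM and at 48.6 and 0.20 CPM. The pooled libraries thus differed in epithelial and mesenchymal content, and the members are given both pooled and within levels of these genes.

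The promoters of most members carry the core letters of the HIF binding motif, and 5 are shown because their genes fall on different sides of the patterns below. In CD9hi, Bnip3 and Pgk1 varied together from cell to cell, and Hilpda and Hk2 formed another grouping. Between the libraries Car9 went the other way from most members. Each run is the 250 bases before the annotated start, 5′ to 3′ on the gene's strand, from RefSeq on GRCm38.p6. Capitals mark ACGTG or GCGTG on either strand, read as CACGT or CACGC where the match is on the other strand. The windows are chr7:138909507-138909756 (minus strand) for Bnip3, chrX:106186850-106187099 (plus) for Pgk1, chr6:29272376-29272625 (plus) for Hilpda, chr6:82774455-82774704 (minus) for Hk2 and chr4:43506776-43507025 (plus) for Car9.
Bnip3: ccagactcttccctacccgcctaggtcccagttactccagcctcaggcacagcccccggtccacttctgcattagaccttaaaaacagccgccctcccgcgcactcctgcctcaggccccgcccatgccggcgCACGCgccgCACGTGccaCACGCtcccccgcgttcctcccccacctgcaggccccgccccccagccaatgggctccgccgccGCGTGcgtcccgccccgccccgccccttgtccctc
Pgk1: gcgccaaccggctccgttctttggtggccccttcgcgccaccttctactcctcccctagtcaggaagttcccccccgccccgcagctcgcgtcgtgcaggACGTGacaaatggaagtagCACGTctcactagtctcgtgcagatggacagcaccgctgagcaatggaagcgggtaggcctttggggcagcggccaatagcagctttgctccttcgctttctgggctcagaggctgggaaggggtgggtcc
Hilpda: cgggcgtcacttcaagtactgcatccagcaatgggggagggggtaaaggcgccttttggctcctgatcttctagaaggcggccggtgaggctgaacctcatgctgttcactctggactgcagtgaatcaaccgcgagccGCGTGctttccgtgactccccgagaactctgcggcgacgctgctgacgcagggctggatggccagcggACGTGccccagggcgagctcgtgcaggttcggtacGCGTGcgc
Hk2: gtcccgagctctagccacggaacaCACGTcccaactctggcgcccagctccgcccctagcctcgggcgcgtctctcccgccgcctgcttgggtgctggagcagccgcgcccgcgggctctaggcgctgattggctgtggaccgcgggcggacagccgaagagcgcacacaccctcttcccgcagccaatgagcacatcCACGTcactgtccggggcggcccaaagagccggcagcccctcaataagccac
Car9: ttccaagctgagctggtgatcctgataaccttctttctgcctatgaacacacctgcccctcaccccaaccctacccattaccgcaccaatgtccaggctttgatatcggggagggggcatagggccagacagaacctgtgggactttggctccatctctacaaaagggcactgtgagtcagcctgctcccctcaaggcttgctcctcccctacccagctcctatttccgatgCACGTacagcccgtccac
The Bnip3 window held 5 matches, of which those starting 108 and 107 bases before the start overlap as the palindrome CACGTG and count on both strands. Pgk1 held 2, starting 150 and 131 bases before the start, Hk2 held 2 (226 and 52 bases) and Car9 held 1 (18 bases). This Hilpda window held 3 (111, 43 and 8 bases), and a second annotated Hilpda window held 0. Of 34 members with a window, 31 had at least 1 match in any window, among them 12 of 12 hypoxia members and 19 of 22 glycolysis members. The exceptions were Gpi1, Tpi1 and Eno2. Like Hilpda, the hypoxia members Pdk1 and Vegfa each also had a window with 0 matches. Over all 27025 genes in the RefSeq table, 41.5% had a match, and by window the shares were 79.6% of 49 member windows and 38.6% of 32851 windows. A match describes letters only, base composition was not matched, and the windows do not show whether a factor binds there.

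In the pooled comparison most measured members were at a higher level in CD9hi than in the whole tumour. A member counted as measured at a mean of 5 CPM or more over both libraries, which held for 33 of 36, and as different at a ratio of 1.5-fold or more. By that rule 20 were higher in CD9hi and 3 lower, whereas 13.5% of the 9858 measured genes were higher and 13.6% lower. The members' median log2 ratio of CPM was 0.84, and that of all measured genes 0.06. Summed, the glycolysis members took 8167 CPM in CD9hi against 5230 CPM in the whole tumour, and the hypoxia members 1177 and 854 CPM. Without the barcodes holding a Prrx1 UMI, 17 members were higher and 3 lower, beside 11.6% and 13.7% of all genes. Pfkl (0.51), Eno1 (0.48), Ankrd37 (0.58), Pdk1 and Egln3 no longer passed there, Hk2 (0.63) and Vegfa (0.72) did, and Ldhb was at -3.19.

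**Figure D1:**
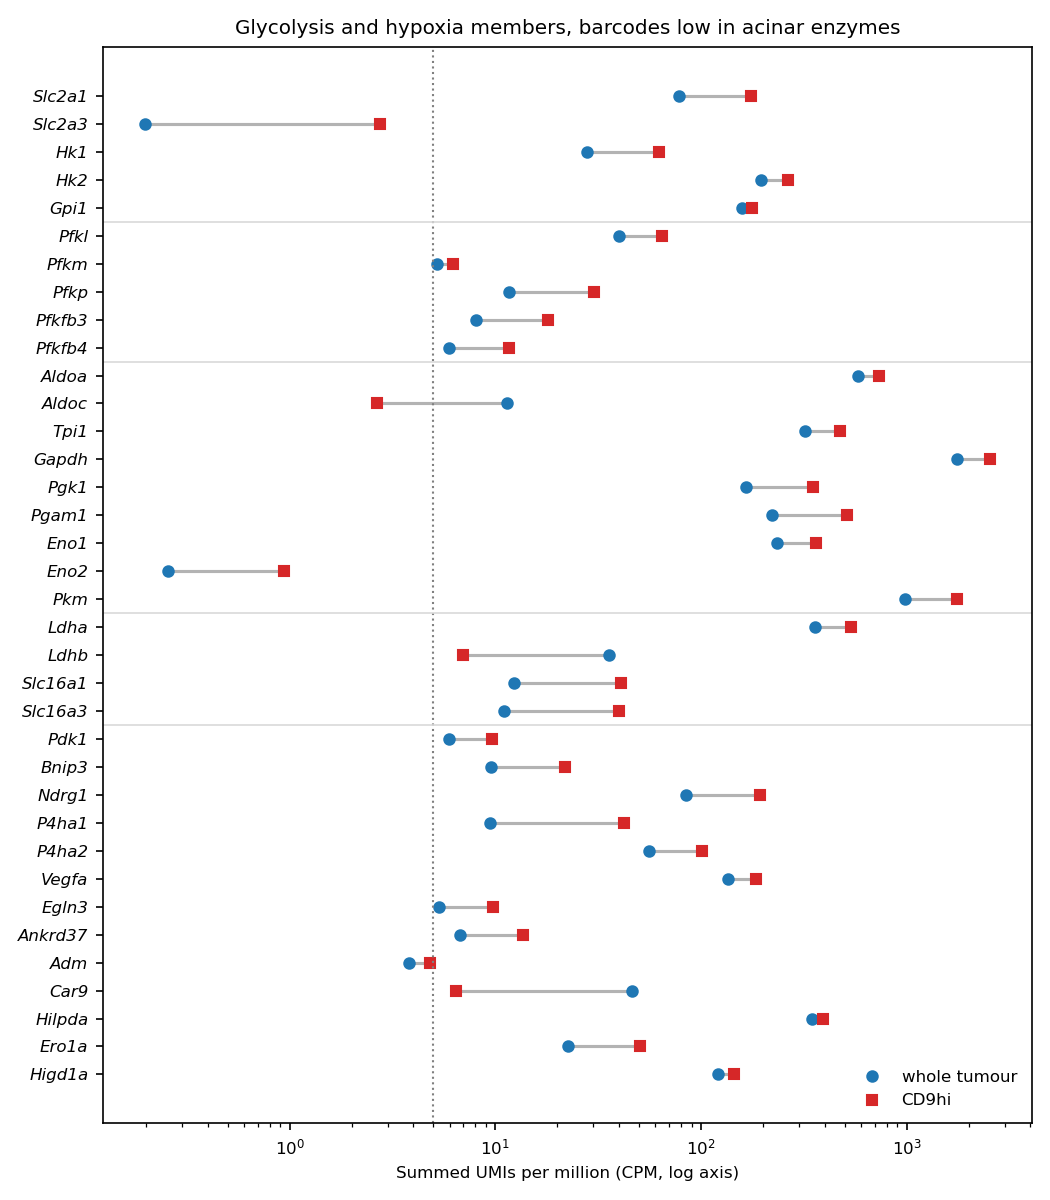
Each line joins a member's level in the whole tumour (blue circle) and in CD9hi (red square), in CPM of summed UMIs over acinar-low barcodes on a log axis. The dotted line marks 5 CPM, and pale lines part the roles. Slc2a3 and Eno2 lie under 5 CPM in both libraries, as does Adm, and only Aldoc, Ldhb and Car9 have the red square to the left of the blue circle.

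Of the genes of glucose entry, a transporter and a hexokinase were higher in CD9hi. Slc2a1, the widely expressed glucose transporter GLUT1, was at 176 CPM in CD9hi against 78.0 CPM in the whole tumour, a log2 ratio of 1.17 (95% interval 1.11 to 1.23). Hk1, a mitochondrial hexokinase, was at 62.7 and 28.0 CPM (1.16, 1.07 to 1.26). Hk2, the inducible hexokinase of many tumours, was at 264 and 197 CPM (0.43), and Gpi1, the isomerase of the next step, at 177 and 158 CPM (0.16), both under 1.5-fold. Slc2a3, the high-affinity transporter GLUT3, did not count as measured, with 296 UMIs in CD9hi and 7 in the whole tumour.

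At the phosphofructokinase step, 4 of the 5 members were higher. Pfkp, the platelet isoform of the enzyme, was at 30.3 CPM in CD9hi against 11.6 CPM in the whole tumour (log2 1.38), and Pfkl, the liver isoform, at 64.9 and 39.9 CPM (0.70). The bifunctional enzymes that set the level of the activator fructose 2,6-bisphosphate were also higher, Pfkfb3 at 18 against 8.01 CPM (1.17) and Pfkfb4 at 11.7 against 5.97 CPM (0.97). Pfkm, the muscle isoform, was at 6.25 and 5.21 CPM, with an interval of 0.03 to 0.51 around a log2 ratio of 0.26.

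Lower glycolysis was uneven in size. Pgam1, a phosphoglycerate mutase, was at 513 CPM in CD9hi against 220 CPM in the whole tumour (log2 1.22, 1.19 to 1.25). Pgk1, which makes the pathway's first ATP, was at 349 and 165 CPM (1.08), and Pkm, the last kinase, at 1757 and 983 CPM (0.84). Eno1, the main enolase, passed narrowly at 1.54-fold (362 and 235 CPM), and triosephosphate isomerase Tpi1 missed narrowly at 1.48-fold (475 and 321 CPM). The dehydrogenase Gapdh (2538 and 1766 CPM) and the aldolase Aldoa (734 and 579 CPM) were higher by less than 1.5-fold. Aldoc, the brain-type aldolase, was lower in CD9hi, at 2.67 against 11.4 CPM (-2.09), and counted as measured only through the whole tumour. Eno2, the neuronal enolase, was under the filter with 101 UMIs in CD9hi and 9 in the whole tumour.

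The genes of lactate handling split by direction. In the pooled comparison the monocarboxylate transporters had the largest ratios among the measured glycolysis members. Slc16a3, the lactate exporter MCT4, was at 40.2 CPM in CD9hi against 11.01 CPM in the whole tumour (log2 1.86, 1.72 to 2.02), and Slc16a1, the transporter MCT1, at 40.7 and 12.3 CPM (1.73, 1.58 to 1.87). Barcodes with a Prrx1 UMI gave 52.2% of the Slc16a3 and 50.7% of the Slc16a1 UMIs of CD9hi. Without them the ratios were 1.26 and 1.17, and that of Pfkfb3 was 1.30. Ldha, the subunit that favours lactate formation, missed the rule at 1.49-fold (534 and 358 CPM). Ldhb, the subunit that favours the reverse reaction, was at 6.94 CPM in CD9hi against 35.7 CPM in the whole tumour (-2.36, -2.50 to -2.23).

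Among the hypoxia members, 8 of the 12 measured were higher and 1 lower. P4ha1, a collagen prolyl hydroxylase subunit, had the largest ratio of any measured member, at 42.1 CPM in CD9hi against 9.43 CPM in the whole tumour (log2 2.16, 2.00 to 2.32), and its relative P4ha2 was at 101 and 55.8 CPM (0.85). Ndrg1, a stress-response gene, was at 194 and 84.9 CPM (1.20), Bnip3, a mitophagy receptor, at 21.8 and 9.51 CPM (1.19), and Ero1a, an oxidase of protein folding, at 50.4 and 22.7 CPM (1.15). Smaller ratios above 1.5-fold were those of Ankrd37 (1.02), the HIF prolyl hydroxylase Egln3 (0.88) and the pyruvate dehydrogenase kinase Pdk1 (0.68). The 19.7% of CD9hi barcodes with a Prrx1 UMI gave 69.9% of the Egln3 and 58.1% of the Pdk1 UMIs. Without barcodes holding a Prrx1 UMI, Egln3 was at 4.05 CPM in CD9hi against 5.25 CPM in the whole tumour (-0.38, -0.64 to -0.10) and under the level filter, Pdk1 was at 5.54 against 5.99 CPM (-0.11, -0.35 to 0.13), and Ankrd37 missed the rule at 1.49-fold.

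The hypoxia members with the smallest ratios included the angiogenic factor Vegfa, at 186 CPM in CD9hi against 135 CPM in the whole tumour (log2 0.47). Hilpda, a lipid droplet protein, was at 393 and 348 CPM (0.17), and Higd1a, a mitochondrial protein, at 144 and 121 CPM (0.26). Adm, the vasodilator adrenomedullin, was under the level filter at 4.79 and 3.82 CPM. Car9, a carbonic anhydrase of the cell surface, was lower in CD9hi, at 6.45 against 46.0 CPM (-2.83, -2.96 to -2.70). Of the Car9 UMIs in acinar-low barcodes of the whole tumour, 49.1% came from the 22.0% of barcodes low in both Epcam and Vim. Islet hormone and granule genes summed to 6409 CPM there and to 21.7 CPM in Epcam-high Vim-low barcodes, where the Car9 level was 55.8 CPM. Acinar enzymes were at 1002 CPM in the barcodes low in both genes and at 494 CPM in the Epcam-high Vim-low ones. Their part in the Car9 ratio was not tested. Leaving out the 22 whole-tumour and 59 CD9hi barcodes highest in islet, macrophage, fibroblast or endothelial markers gave the same counts, 20 higher and 3 lower.

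Of 44 other hypoxia target genes, 35 passed the level filter, with 12 of them higher and 2 lower. Their median log2 ratio was 0.37. For this and the lists below, the shares of all measured genes were 13.5% higher and 13.6% lower. Nrn1 (1.98) and the collagen lysyl hydroxylase Plod2 (1.83) had the largest ratios, and Bhlhe41 (-0.67), Zfp395 (-0.59) and the transferrin receptor Tfrc (-0.53) the smallest. In the HIF pathway itself, 3 of 11 measured genes were higher and 1 lower. Hif1a, the alpha subunit of HIF-1, was at 111 CPM in CD9hi against 58.3 CPM in the whole tumour (0.92), its partner Arnt was at a ratio of 0.74, and Egln1, the main oxygen-sensing hydroxylase, at 0.62. Epas1, the alpha subunit of HIF-2, was lower (-1.04). Genes of glucose carbon use outside glycolysis were mostly within 1.5-fold, as were most of all measured genes. In all, 0 of 17 genes of the tricarboxylic acid cycle were higher and 3 lower (median -0.01), and 0 of 7 pentose phosphate genes were higher and 2 lower. Txnip, which restrains glucose uptake, was at 15.9 and 53.7 CPM (-1.76), and Mpc1, a mitochondrial pyruvate carrier, at a ratio of -1.26.

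Within strata cut by Epcam and Vim the members again differed between libraries, but with another pattern in each. Cuts were set at the whole-tumour medians, 2060 CPM for Epcam and 64.3 CPM for Vim. The Vim cut lies near 1 UMI: no more than 1 was found in 51 of 983 Vim-high whole-tumour barcodes and in 29 of 4242 CD9hi ones. For Epcam, 426 and 364 barcodes lay within 20% of the cut. In Epcam-high Vim-low barcodes (550 in the whole tumour, 174 in CD9hi), 12 of 32 measured members were higher in CD9hi and 4 lower, beside 13.8% and 15.2% of all genes. In Vim-high Epcam-low barcodes (550 and 3442), 16 of 32 were higher and 2 lower, beside 10.1% and 7.16%. In barcodes high in both genes (433 and 800), 11 of 31 were higher and 1 lower, beside 7.61% and 9.38%. The cuts did not equalise the libraries. Epcam was at 4689 CPM in CD9hi against 3340 CPM in the whole tumour among Epcam-high Vim-low barcodes. In Vim-high Epcam-low ones Vim was at 5536 against 3894 CPM, Epcam at 495 against 816 CPM and Prrx1 at 60.8 against 0.29 CPM, and in those high in both Vim was at 2454 against 1401 CPM. Leaving out the 874 CD9hi and 3 whole-tumour barcodes with a Prrx1 UMI from the Vim-high Epcam-low ones left 14 of 31 members higher and 2 lower, beside 6.92% and 6.5%. The part of these levels in the members' ratios was not tested.

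Some members kept 1 direction in both strata. Slc2a1 was at 248 CPM in CD9hi against 76.0 CPM in the whole tumour among Epcam-high Vim-low barcodes (log2 1.71), and at 166 and 81.4 CPM among Vim-high Epcam-low ones (1.02). Ndrg1 had ratios of 1.35 and 1.04, P4ha1 of 0.91 and 1.80, and Pfkfb3 of 1.55 and 1.10. Car9 was lower in CD9hi in both (-1.86 and -1.75), as was Ldhb (-2.90 and -0.97, the latter -1.95 without Prrx1 barcodes).

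Others differed by stratum. Bnip3 was lower in CD9hi among Epcam-high Vim-low barcodes, at 2.14 against 9.21 CPM (log2 -2.01, -3.46 to -1.005, from 7 CD9hi UMIs), and higher among Vim-high Epcam-low ones, at 25.6 against 10.8 CPM (1.24, 0.97 to 1.53). In the first of these strata it counted as measured only through the whole tumour. Egln3 was at 4.89 and 7.06 CPM in the first stratum (-0.50, -1.41 to 0.27) and at 11.5 and 1.57 CPM in the second (2.83, 2.17 to 3.69). Egln3 counted as measured only through the whole tumour in the first and only through CD9hi in the second. Without barcodes holding a Prrx1 UMI it was at 4.51 and 1.38 CPM in the second (1.66, 0.93 to 2.60), under the level filter. Pgk1 was within 1.5-fold in the first (0.05) and higher in the second (1.14). Hilpda and Vegfa had the larger ratio in the first, at 0.67 and 1.04, against -0.54 and 0.38 in the second. Whether these ratios differ between strata was not tested.

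With stricter cuts the pattern was similar, and the Cd9 level differed between the strata. Among barcodes with Vim at 2000 CPM or more and Epcam under 1500 CPM, 16 of 32 measured members were higher and 2 lower (background 11.5% and 6.07%). Cd9 was there at 2306 CPM in CD9hi against 3127 CPM in the whole tumour. Ldhb was within 1.5-fold in that stratum (7.90 CPM in CD9hi against 7.22 CPM in the whole tumour, log2 0.12, -0.29 to 0.58), and Hilpda was lower in CD9hi (-0.67). Among barcodes with Epcam at 1500 CPM or more and Vim under 500 CPM, 14 of 33 were higher and 6 lower (background 11.8% and 12.2%), and Cd9 was at 2133 CPM in CD9hi against 1033 CPM in the whole tumour. Where Epcam reached 1500 CPM and Vim 2000 CPM together (146 and 639 barcodes), 11 of 30 were higher and 2 lower (background 9.09% and 9.77%). The 6 lower members of the Epcam barcodes were Aldoc, Ldhb, Bnip3, Egln3, Ankrd37 and Car9.

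**Figure D2:**
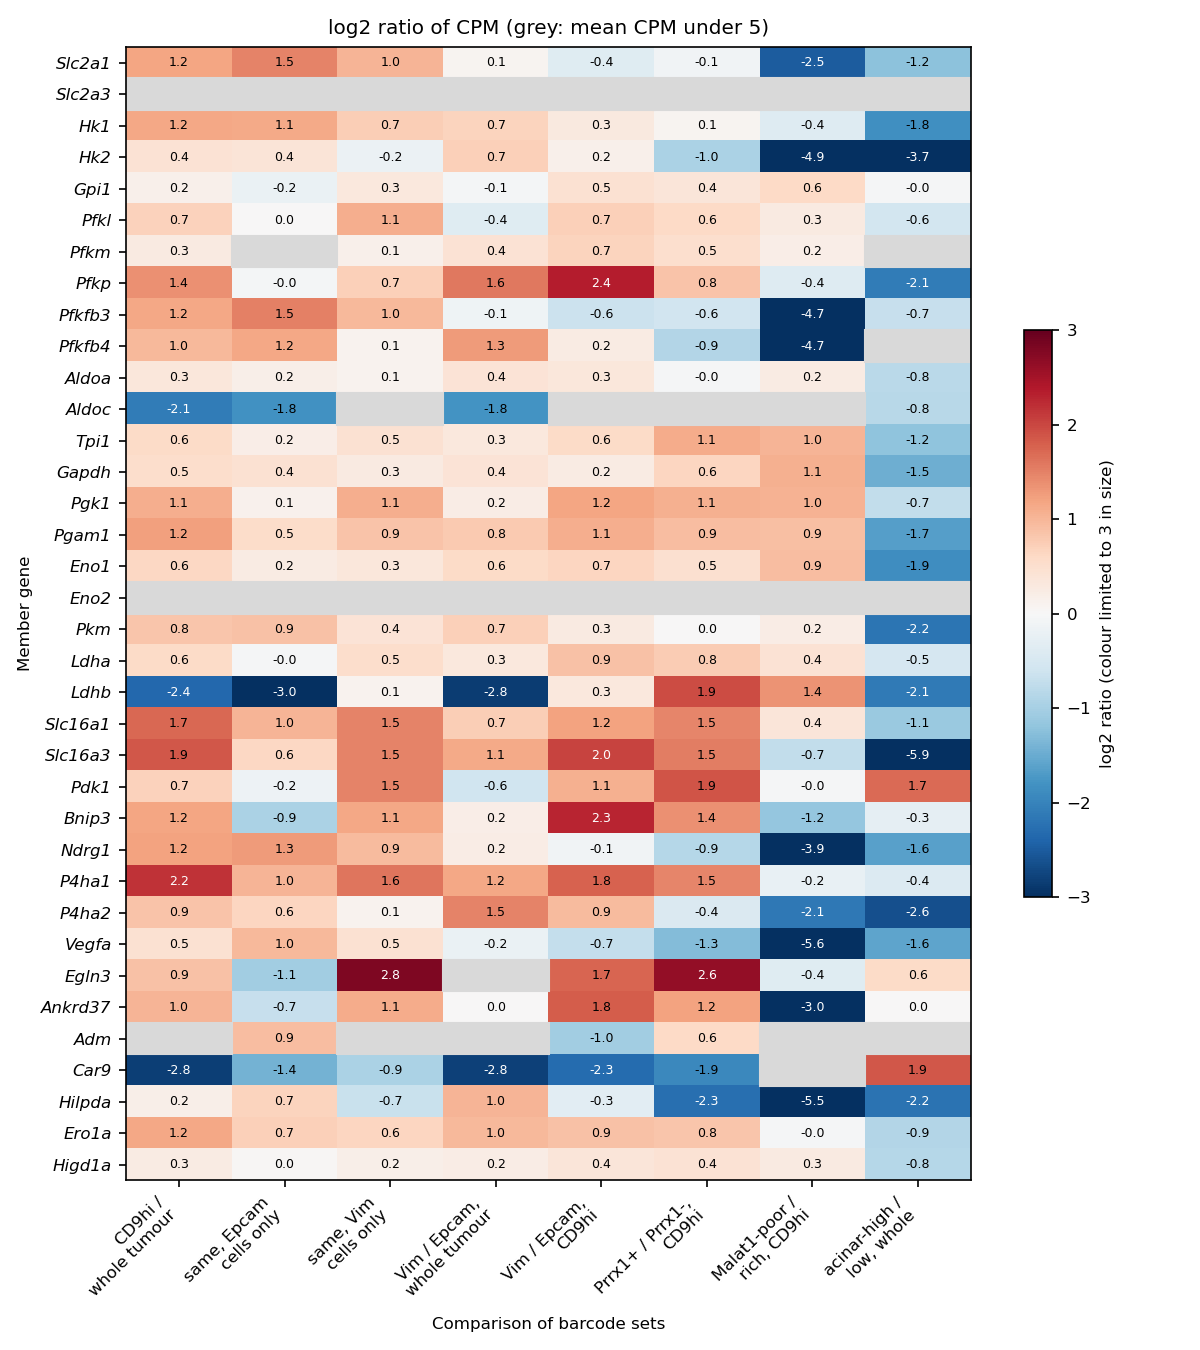
Log2 ratios of CPM for the 36 members (vertical axis) in 8 comparisons of barcode sets (horizontal axis), with grey for a mean CPM under 5. Epcam cells are barcodes with Epcam at 1500 CPM or more and Vim under 500 CPM, and Vim cells those with Vim at 2000 CPM or more and Epcam under 1500 CPM. Hk2, Vegfa and Hilpda are blue in Prrx1-positive and Malat1-poor barcodes, where Pgk1, Tpi1 and Gapdh are red.

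Inside 1 library, Vim-high Epcam-low barcodes had more of many members than Epcam-high Vim-low barcodes. In the whole tumour 11 of 32 measured members were higher and 3 lower, beside 9.86% and 14.3% of all genes. In CD9hi 18 of 33 were higher and 4 lower, beside 14.3% and 13.7%. Higher in both libraries were Pfkm (log2 0.79 and 0.81), Pfkp (1.34 and 2.64), Pgam1 (0.73 and 1.14), Slc16a3 (0.64 and 1.79), P4ha1 (0.85 and 1.74), P4ha2 (1.35 and 1.08) and Ero1a (0.79 and 0.94). Car9 was lower in both (-1.85 and -1.74). Hilpda was at 539 against 268 CPM in the whole tumour (1.01) but at 369 against 427 CPM in CD9hi (-0.21). Bnip3 was within 1.5-fold in the whole tumour (0.23) and higher in CD9hi (3.48), where it counted as measured only through the Vim-high Epcam-low barcodes. The same held for Pfkm in both libraries, for Pfkfb4 in the whole tumour, and for Pdk1, Egln3 and Ankrd37 in CD9hi. Car9 and Adm counted as measured in CD9hi only through the Epcam-high Vim-low barcodes. The counts above include these members, so they rest in part on the level filter.

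Prrx1, a transcription factor of mesenchyme, divided the hypoxia members of CD9hi. A Prrx1 UMI was found in 882 of 4473 CD9hi barcodes, of which 173 had exactly 1, and in 6 of 1966 whole-tumour barcodes, so the comparison was made in CD9hi alone. Of 33 measured members, 17 were higher in Prrx1-positive barcodes and 6 lower, beside 16.2% and 13.8% of all genes. Egln3 was at 25.1 CPM in Prrx1-positive and 4.05 CPM in Prrx1-negative barcodes (log2 2.63), Pdk1 at 20.5 and 5.54 CPM (1.89), Bnip3 at 39.3 and 15.2 CPM (1.37) and P4ha1 at 78.8 and 28.4 CPM (1.47). Of these, Egln3 counted as measured only through the Prrx1-positive barcodes, as did Ldhb and Adm among the other higher members. The transporters Slc16a3 (1.54) and Slc16a1 (1.46) and the enzymes Tpi1 (1.12), Pgk1 (1.05), Pgam1 (0.93) and Ldha (0.76) were higher too.

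On the other side, Hilpda was at 105 CPM in Prrx1-positive and 501 CPM in Prrx1-negative barcodes (log2 -2.26), Vegfa at 89.6 and 222 CPM (-1.31), and Hk2 at 157 and 304 CPM (-0.96). Car9 (-1.94), Pfkfb4 (-0.87) and Ndrg1 (-0.86) were also lower, and Car9 counted as measured only through the Prrx1-negative barcodes. The hypoxia members summed to 846 against 1301 CPM, while the glycolysis members summed to 10217 against 7398 CPM. The lower hypoxia sum rested on Hilpda and Vegfa, and the other hypoxia members together summed higher in Prrx1-positive barcodes. Restricting both sides to Vim-high Epcam-low barcodes left 14 of 31 higher and 5 lower (background 15.8% and 12.4%), with Hilpda at -2.29 and Egln3 at 2.48. Other lists moved with Prrx1. All 9 fibroblast markers had UMIs in Prrx1-positive barcodes, summing to 531 CPM, against 30.8 CPM in Prrx1-negative ones, where Lum was at 0. Proliferation genes summed to 584 against 214 CPM, and the median depth was 30498 against 21267 UMIs. The part of these in the members' ratios was not tested.

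A partly similar division appeared from cell to cell in CD9hi when members were set against each other. In CD9hi the barcodes are those split by Prrx1 above, so this is not a separate observation. Not all members kept their side: in CD9hi Car9 had r of 0.21 with Bnip3 and 0.04 with Hilpda, and Slc16a1 had 0.07 with Bnip3. Pearson r was computed over acinar-low barcodes on log counts per 10000, and describes points that share a library. Bnip3 in CD9hi was most correlated with Slc16a3 (0.48), Pgk1 (0.45), Pfkl (0.41) and Ankrd37 (0.38), followed by Egln3, Ldha, Tpi1 and Pgam1 (0.37 each). Hilpda was most correlated with Hk2 (0.44), Vegfa (0.40), Slc2a1 (0.30), Ndrg1 (0.27) and Pfkfb3 (0.23). Bnip3 and Hilpda themselves had r of -0.03 in CD9hi and 0.03 in the whole tumour, and Vegfa with Bnip3 had 0.01 and -0.01. In the whole tumour the Bnip3 values were smaller, with Egln3 at 0.25, Slc16a3 at 0.20 and Pgk1 at 0.19, at a lower Bnip3 level. Hilpda there had 0.32 with Hk2, 0.35 with Gapdh and 0.34 with Pkm, whereas in CD9hi it had -0.04 with Gapdh and 0.07 with Pkm. Tpi1, Pgam1, Ldha, Eno1 and Aldoa had larger r with Hilpda than with Bnip3 in the whole tumour. The values were 0.20 against 0.07, 0.23 against 0.11, 0.20 against 0.11, 0.20 against 0.07 and 0.27 against 0.15. Pgk1 had 0.17 against 0.19, while Slc16a3 (0.05 against 0.20) and Egln3 (-0.03 against 0.25) kept the Bnip3 side. The printed windows of Bnip3, Pgk1, Hilpda and Hk2 all held motif letters. A match was found for 31 of 34 members with a window, so the letters cannot tell the groupings apart.

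**Figure D3:**
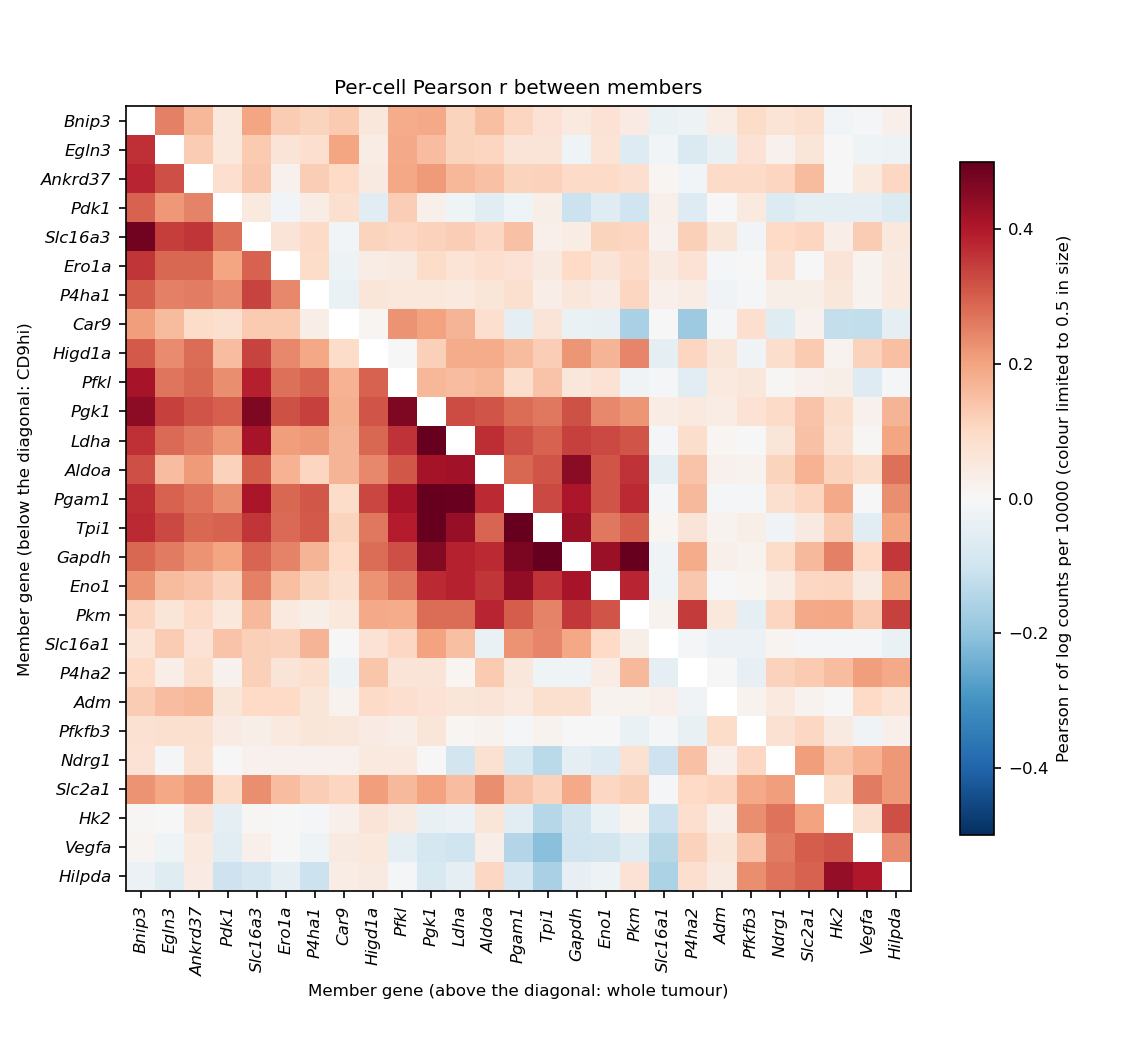
Per-cell Pearson r between 27 members, in the whole tumour above the diagonal and in CD9hi below it, with genes ordered after their values were seen and colour limited to 0.5 in size. A red block joins Bnip3, Slc16a3 and lower glycolysis in CD9hi, and a separate red corner joins Hilpda, Vegfa and Hk2.

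Summed over each set, glycolysis and hypoxia members were weakly related per cell. After each barcode was thinned to 5000 UMIs, Spearman's rho was 0.30 over 1856 whole-tumour barcodes (Pearson r 0.33) and 0.09 over 4382 CD9hi barcodes (r 0.20), with 110 and 91 shallower barcodes left out. The CD9hi value depended on the choices made: rho was -0.047 with Malat1-poor barcodes included and 0.26 as a mean of log levels without thinning. A barcode then held a median of 3 hypoxia UMIs in the whole tumour and 5 in CD9hi, beside 24 and 36 glycolysis UMIs. Within Prrx1-positive barcodes of CD9hi rho was 0.27, and within Prrx1-negative ones 0.13. In whole-tumour barcodes with Vim at 2000 CPM or more and Epcam under 1500 CPM it was 0.04. Without Hilpda and Vegfa rho was 0.18 in both libraries.

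Barcodes in the top 10% by hypoxia UMIs showed which glycolysis genes accompanied the hypoxia members. These were 199 whole-tumour barcodes with at least 9 hypoxia UMIs, against 1657, and 522 CD9hi barcodes with at least 12, against 3860. In the whole tumour 5 of 21 measured glycolysis members were higher in the top barcodes and 2 lower, beside 3.57% and 8.49% of all genes. In CD9hi 6 of 20 were higher and 1 lower, beside 2.42% and 3.91%. Vim-high Epcam-low barcodes made up 44.7% of the top and 26.5% of the rest in the whole tumour, and 74.5% and 77.5% in CD9hi, and their part in the ratios was not tested. Slc16a3 had log2 ratios of 1.27 in the whole tumour and 1.04 in CD9hi, Slc2a1 of 0.99 and 1.03, and Hk2 of 0.99 and 1.16. Pfkfb3 was higher in CD9hi (1.20) and at 0.49 (-0.03 to 0.95) in the whole tumour. Gapdh was at 0.36 and 0.08 and Pkm at 0.33 and 0.11. Ldhb was lower in both (-2.17 and -1.14). When the top barcodes were chosen without Hilpda and Vegfa, Hk2 was at 0.07 in the whole tumour and 0.58 in CD9hi, Pfkfb3 at 0.81 and 0.62, Pfkl at 0.64 and 1.09, Pgk1 at 0.73 and 1.04, and Slc16a3 at 1.55 and 1.95.

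**Figure D4:**
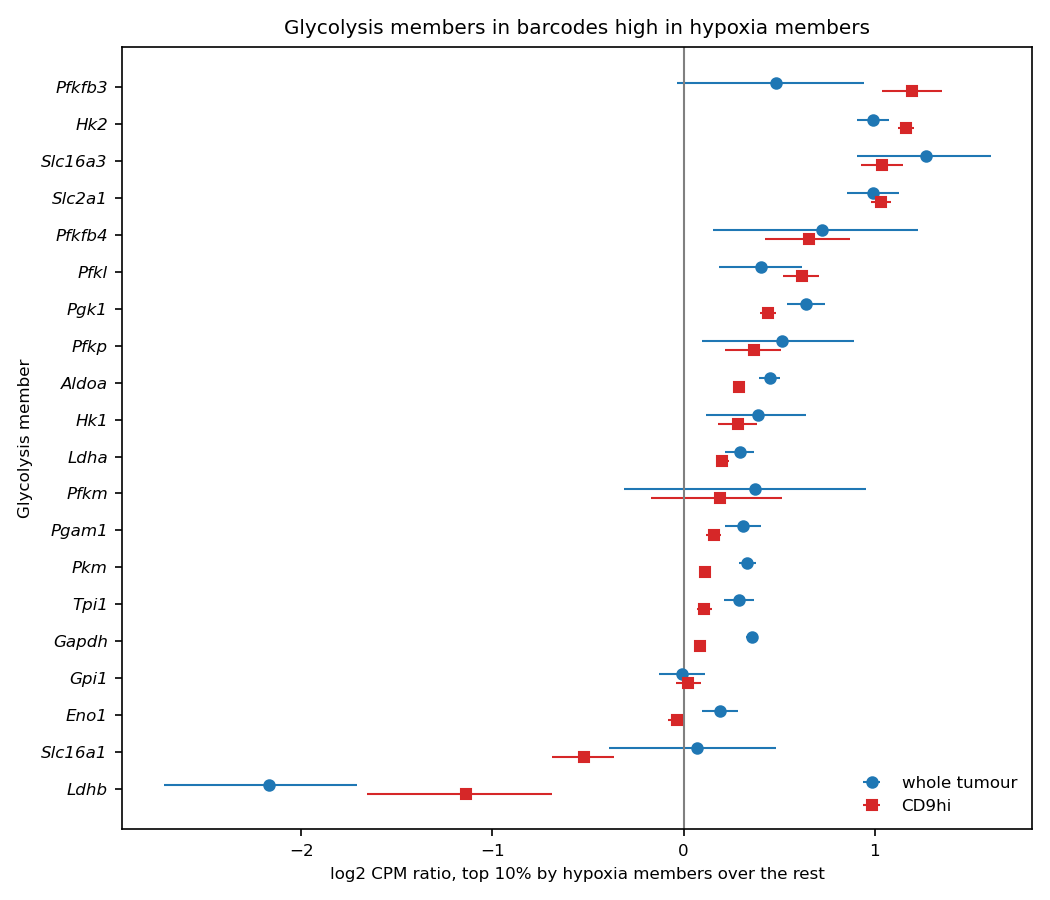
Log2 CPM ratio of each glycolysis member between the top 10% of barcodes by hypoxia members and the rest, for the whole tumour (blue circles) and CD9hi (red squares), with 95% intervals for counting error. Slc16a3, Slc2a1 and Hk2 lie near 1 in both libraries, and Ldhb is the farthest to the left.

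Outside all lists, the gene whose per-cell level was most like the summed hypoxia members was Ier3, a stress-induced survival gene, with r of 0.49 in the whole tumour and 0.43 in CD9hi. Of 5140 genes ranked by the smaller of both values, the next were Mast4 (0.43 and 0.38), the phosphatase Dusp5 (0.37 in both), the cell cycle inhibitor Cdkn1a (0.36 and 0.43) and the growth factor Hbegf (0.38 and 0.35). Tcim, Csf2, Tgif1, Areg and Basp1 completed the first 10. With the glycolysis sum these 10 had r of 0.15 to 0.46 in the whole tumour and of -0.18 to 0.10 in CD9hi. The hypoxia sum leaned on its most abundant members. Hilpda had r of 0.75 and 0.74 with it, Vegfa 0.52 and 0.61, and Ndrg1 0.43 and 0.56. The ranking thus favours genes that vary with these members rather than with all hypoxia members alike.

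Isozyme shares compare the UMIs of alternative enzymes for 1 step across barcode sets, with 95% exact Clopper-Pearson intervals. Hk1 made up 12.5% (11.7 to 13.2) of hexokinase UMIs in the whole tumour and 19.2% (18.8 to 19.6) in CD9hi, and 29.4% in Prrx1-positive barcodes. P4ha1 made up 14.4% (13.0 to 15.9) of P4ha1 and P4ha2 UMIs in the whole tumour, 29.4% (28.7 to 30.1) in CD9hi and 49.3% in Prrx1-positive barcodes. Ldhb held 9.07% (8.60 to 9.56) of Ldha and Ldhb UMIs in the whole tumour and 1.28% (1.19 to 1.38) in CD9hi. Within the whole tumour it held 13.6% in barcodes with Epcam at 1500 CPM or more and Vim under 500 CPM, and 1.72% in those with Vim at 2000 CPM or more and Epcam under 1500 CPM. Pfkp took 13.3% and 35.6% of phosphofructokinase UMIs in the same whole-tumour sets, and 12.9% and 31.7% in CD9hi. The share of Slc16a1 in Slc16a1 and Slc16a3 UMIs was 52.7% (49.3 to 56.2) and 50.3% (49.2 to 51.4), intervals that overlap.

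**Figure D5:**
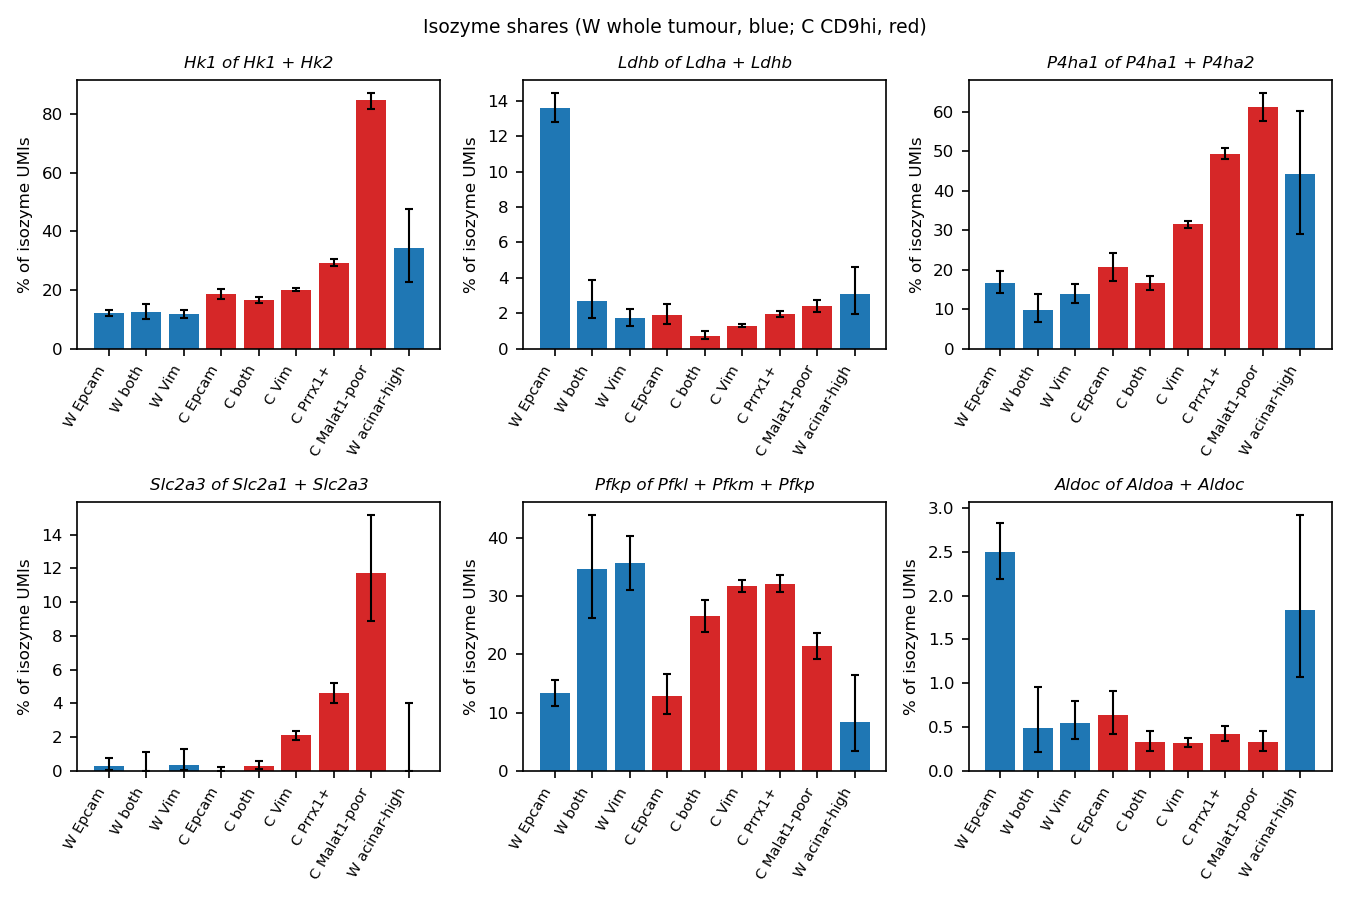
Share of an isozyme in the UMIs of its group, in percent, by barcode set of the whole tumour (W, blue) and CD9hi (C, red), with 95% Clopper-Pearson intervals. Ldhb stands at 13.6% in whole-tumour Epcam barcodes and under 4% in the other sets, and Hk1 reaches 84.7% in Malat1-poor barcodes of CD9hi.

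In Malat1-poor barcodes of CD9hi several enzymes of lower glycolysis were at a higher level, and Hilpda, Vegfa, Hk2 and Ndrg1 at a much lower one. They numbered 613, with 62 CD9hi barcodes between 500 and 2000 CPM of Malat1, and had a median of 2366 detected genes and 31.6% ribosomal protein UMIs. Of 31 measured members, 7 were higher than in Malat1-rich barcodes and 11 lower, while 9.36% of all genes were higher and 63.9% lower and the median of all genes was -1.19. Gapdh was at 5320 against 2535 CPM (log2 1.07), Pgk1 at 720 against 349 CPM (1.05), Tpi1 at 963 against 474 CPM (1.02) and Ldhb at 17.7 against 6.93 CPM (1.36). Eno1 (0.93), Pgam1 (0.90) and Gpi1 (0.59) were also higher. Hilpda was at 8.33 against 392 CPM (-5.55), Vegfa at 3.92 against 186 CPM (-5.55), Hk2 at 8.66 against 264 CPM (-4.92) and Ndrg1 at 13.0 against 194 CPM (-3.90). Adm, under the level filter in this comparison, had 0 UMIs, which allows up to 0.245 CPM, so it was at least 19.5-fold lower. Pdk1 (-0.03), Ero1a (-0.04), P4ha1 (-0.22) and Egln3 (-0.36) were close to the Malat1-rich level. Relative to the median of all genes, 20 members were higher, with no share of all genes given by that rule. In the same barcodes heat shock and immediate early genes summed to 1089 against 6992 CPM. How loss of nuclear RNA bears on these ratios was not tested.

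In whole-tumour barcodes rich in acinar enzymes most members were lower, as were most of all measured genes, while Car9 and Pdk1 were higher. Of 31 members measured, 22 were lower and 2 higher in the 126 barcodes with acinar enzymes at 100000 CPM or more than in acinar-low ones, beside 55.3% and 6.71% of all genes (median of all genes -0.67). Enzyme transcripts took 281505 CPM there, which lowers the CPM of every other gene. With totals leaving out mitochondrial, ribosomal protein and acinar enzyme genes, 17 members were lower and 3 higher. The share of all genes at that setting is not given. Car9 was at 168 against 46.0 CPM (log2 1.87) and Pdk1 at 19.4 against 5.97 CPM (1.71). Hk2 was at 14.6 against 197 CPM (-3.73), and Slc16a3 had 0 UMIs, which allows up to 1.10 CPM, at least 10.0-fold lower. In the 242 barcodes between 10000 and 100000 CPM, 5 of 31 were higher and 9 lower, beside 9.54% and 21.7% of all genes. Car9 was there at 378 CPM (3.04), Egln3 at 14.3 CPM (1.44) and Pdk1 at 17.2 CPM (1.53), and the others higher were Ankrd37 (0.96) and Ldha (0.63). The 216 Malat1-poor barcodes of the whole tumour held 536912 CPM of acinar enzymes, and there 26 of 27 measured members were lower and 0 higher, beside 93.4% and 2.01%.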

How the data were processed

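Dissociated tumours of the KPFRR mouse gave 1 droplet library of transcript 3′ ends per group, whole tumour and CD9hi. The authors deposited raw UMI counts per feature and barcode, not normalized, per the file headers. Cell Ranger is given as 7.0.0 with GRCm39, per the submitters' processing notes, and as 6.1.2, per the file headers. Whether introns were counted is not given in the sources used here. Barcodes needed 500 genes, 1000 UMIs and at most 20% mitochondrial UMIs. CPM were computed from summed UMIs of a barcode set. Log2 ratios added 0.5 counts to each sum, with exact conditional binomial 95% intervals. The rules were a mean of 5 CPM and a ratio of 1.5-fold. Ratios were also run on simulated counts with set folds and counting error only. That run does not bear on variation between cells or libraries. Doublets were not removed, and removing 52 and 207 barcodes by Scrublet score was an alternative.

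The members and lists were chosen with earlier results of these data known. All 36 members could be named. Of other lists, the 3 largest and 3 smallest measured ratios were named, except 1 gene that is not reported here, and of genes in no list the 10 with the highest smaller per-cell r against the hypoxia sum, at 20 CPM or more in both libraries. Bhlhe41, Zfp395, Mpc1 and the like come from those ends. The stricter Epcam and Vim cuts, the sums without Hilpda or Vegfa, and the sets without Prrx1 or other-type barcodes were chosen after seeing the data, as was the choice of printed promoters. Counts of genes with near-identical copies, such as Gapdh, Eno1 (copy Eno1b), Pgk1, Tpi1, Pkm and Ldha, are uncertain. A second feature named Aldoa, with 3 and 1 UMIs, was not used. Tools were numpy 2.4.6, scipy 1.17.1, pandas 2.3.3 and scanpy 1.11.5.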

Additional observations from a re-analysis of the deposited data

Results flagged for a closer look

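Bnip3 moved in opposite directions in 2 strata cut by Epcam and Vim, within which the libraries still differed in the level of both genes. Its log2 ratio of CD9hi over whole tumour was -2.01 in Epcam-high Vim-low barcodes, where CD9hi gave 7 Bnip3 UMIs, and 1.24 in Vim-high Epcam-low barcodes. Among the Epcam-high Vim-low barcodes Bnip3 counted as measured only through the whole tumour. With 1 library per group the difference between strata was not tested. With Epcam at 1500 CPM or more and Vim under 500 CPM the ratio was -0.94, and with Vim at 2000 CPM or more and Epcam under 1500 CPM it was 1.15.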

How the results depend on the processing

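No paired analysis was possible because each group had 1 library. Of 117 recomputed values, 85 kept their direction and stayed within 1.5 times the reported count, or within the counting interval of the reported median or correlation. For CD9hi against whole tumour, a minimum of 50 CPM left 8 members higher and 0 lower with a median log2 ratio of 0.58, and a 2-fold rule left 13 higher. Only Vim barcodes (2000 CPM or more, Epcam under 1500) gave a median of 0.59, only Vim-high Epcam-low barcodes without a Prrx1 UMI 0.55, and only Epcam barcodes (1500 CPM or more, Vim under 500) gave 6 lower and a median of 0.40. For Vim-high Epcam-low over Epcam-high Vim-low, 50 CPM left 5 higher and 0 lower in the whole tumour and 8 higher and 1 lower in CD9hi, and the 2-fold rule left 4 higher in the whole tumour and 2 lower in CD9hi. The 2-fold rule left 10 higher and 3 lower for Prrx1, and 4 higher in Malat1-poor barcodes, against 20 higher with the median of all genes set to 0. Shares of all genes are given only for 5 CPM, 1.5-fold and ratios not shifted by a median. The counts here at 50 CPM, at 2-fold or with the median set to 0 therefore have no share beside them.

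The per-cell correlation of glycolysis with hypoxia members, reported as 0.30 in the whole tumour and 0.09 in CD9hi, was 0.40 and 0.26 as a mean of log levels without thinning, and 0.20 and 0.052 when thinned to 2000 UMIs. In the whole tumour it was 0.25 within Epcam-high Vim-low, 0.14 within Vim-high Epcam-low, 0.036 within Vim barcodes of the stricter cut, 0.17 without Hilpda and 0.18 without Hilpda and Vegfa. In CD9hi it was 0.17 within Epcam-high Vim-low, 0.13 without Gapdh, Aldoa and Ldha, 0.18 without Hilpda and Vegfa, 0.20 as Pearson's r and -0.047 with Malat1-poor barcodes included. The causes were not tested. At 5000 UMIs, 8.67% of thinned whole-tumour barcodes and 3.47% of CD9hi barcodes held 0 UMIs of the hypoxia members.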
